A study of Mus musculus with 24 samples.

Results

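The shared response to LCL161 was read by setting all 12 libraries from LCL161-treated mice against all 12 from vehicle-treated mice, which together are all 24 libraries of the series. Each arm holds 3 libraries from each of 4 sorted populations: CD45+CD4+ cells of the spleen, CD45+CD8+ cells of the spleen, and both sorts from the tumor (called spleen CD4 or CD8 and tumor CD4 or CD8 below). Every mouse, in both arms, was TCRα-/-, a genotype that disrupts the locus of the receptor's alpha chain, and carried a tumor grown in the pancreas from live-passaged organoids named M8. No untumored or wild-type group and no second tumor line is among the samples, and the age of the mice is not stated. Dosing with LCL161 was oral, 75 mg/kg once every 3 days, the first dose fell on day 4, and cells were taken on day 12, after 3 doses. The labels do not say whether libraries with the same number come from 1 mouse. If they do, each arm holds 3 animals rather than 12, so the p-values measure the spread between libraries.

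LCL161 mimics SMAC, the mitochondrial protein that binds inhibitor of apoptosis proteins (IAPs), and it drives the ubiquitin ligases cIAP1 and cIAP2 to self-degradation. Those ligases, held in a complex with TRAF2 and TRAF3, keep the kinase NIK (Map3k14) short-lived in resting cells. When they are lost NIK accumulates, the precursor p100 made from Nfkb2 is cut to p52, and p52 enters the nucleus with RELB: this is the alternative NF-kB pathway, which in T cells normally follows costimulatory receptors of the TNF receptor family. The classical pathway instead frees RELA and REL from IkB proteins, and many IkB proteins and deubiquitinases are its own targets, so that the pathway restrains itself.

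Library totals ran from 15.5 to 25.1 × 1e6 counts. Levels are in CPM, counts per 1e6 after TMM scaling of the library sizes, and can be compared between libraries for 1 gene, not between genes, since gene length is not taken into account. The sort showed in the RNA: Cd4 lay between 688 and 1430.3 CPM in CD4-sorted libraries and between 7.07 and 31.7 CPM in CD8-sorted ones, while Cd8a lay between 565 and 1159 CPM in CD8-sorted libraries and between 0.0469 and 3.98 CPM in CD4-sorted ones. Neither was called (Cd4, log2 fold change 0.12 ± 0.15 SE, adjusted p = 0.599, and Cd8a, -0.50 ± 0.33, adjusted p = 0.321). The common value of Cd8a joins opposite signs. It had 0.13 and 0.26 in the CD8 sorts of spleen and tumor. In the CD4 sorts, where it rests on few counts, it had -1.77 and -2.21. Markers of B cells, dendritic cells and macrophages were also present in every library, and their levels are given with the results they move with.

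The common term was fitted with edgeR's quasi-likelihood test as 1 LCL161 effect beside 1 level for each population, and genes were called at a Benjamini-Hochberg adjusted p under 0.05. Of 20174 genes tested, 3371 (16.7%) were called: 1833 (9.09%) were higher with LCL161 and 1538 (7.62%) were lower. Counts of calls within the gene lists below are to be read against these shares. Most calls were small, since 185 genes (0.917%) rose and 370 (1.83%) fell at least 2-fold. The effect had 1 sign in all 4 populations for 3018 of the calls, 1701 of them higher and 1317 lower, against 6221 (30.8%) of all genes tested. The common term that selects the calls combines these same 4 effects, so the selection itself favors 1 sign. The gap to all genes is therefore not a test of a shared response. In 96 genes every LCL161 library lay above every vehicle library in each of the 4 populations (0.476% of genes tested), and in 37 every one lay below (0.183%). Within 1 population such separation was far more common: upward in 7.67% of genes in spleen CD4, 21.1% in spleen CD8, 7.14% in tumor CD4 and 11.6% in tumor CD8, and downward in 6.9%, 17.8%, 8.09% and 11.9% in the same order.

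The count of calls leaned on some populations more than on others. Without the spleen CD8 libraries 784 genes were called, and without the tumor CD8 libraries 1712, against 3255 without spleen CD4 and 2824 without tumor CD4. Across genes, the effects of 2 populations were only loosely related: Pearson's r ran from 0.099 to 0.192 and Spearman's rho from 0.158 to 0.319 over the 6 pairs of populations and 20174 genes, as a description, since genes are not independent replicates. Markers of other cells differed between the arms too, and with scores of 4 marker lists (B and plasma cells, monocytes and macrophages, conventional dendritic cells, neutrophils) added as covariates 53 genes were called, 44 of which had been called without the scores. Those scores hold 79.3% of the variance of the treatment term and make its standard errors 2.2 times as large, so a call lost with them is not shown to come from other cells. Of 123 called genes named below, 23 held their call with the 4 scores, 78 held it without spleen CD8 and 113 held it with each library left out in turn. In a bulk library fewer cells of a type and less RNA per cell cannot be told apart.

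Genes for IkB proteins and for the alternative NF-kB subunits rose together. Of 16 genes for NF-kB subunits and IkB proteins, 9 rose and 0 fell, with a median log2 fold change of 0.42 against 0.01 over all genes tested. The leading gene of the whole comparison was Nfkbia (chromosome 12, 55489410 to 55492647, GRCm38), which encodes IkBα, the inhibitor that returns RELA to the cytoplasm. In spleen CD4 it had 299, 271 and 288 CPM under vehicle against 955, 571 and 766 CPM under LCL161. In spleen CD8 it had 209.8, 185 and 175 CPM under vehicle against 626, 496 and 805 CPM under LCL161. No library of one arm reached the other in either spleen population. In tumor CD4 the values were 499, 414 and 363 CPM against 1182, 1144 and 929.7 CPM, and in tumor CD8 they were 161, 183 and 182 CPM against 737, 531 and 554 CPM. The tumor groups did not overlap either, and the common log2 fold change of Nfkbia was 1.58 ± 0.10 (SE, 24 libraries, adjusted p = 4.29e-09, edgeR). With the 4 marker scores Nfkbia stood at 1.94 (adjusted p = 0.000488).

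The 250 bases before 1 annotated transcription start per gene are printed. The genes are 3 that rose (Nfkbia, Nfkb2, Tnfaip3) and 1 that was not called (Rel). The bases are from RefSeq on GRCm38.p6, each 5′ to 3′ on the strand of its gene. Capitals mark a match to GGG, any 2 bases and TTTCC, a form of the kB site, on either strand. The examples were picked among genes with a match, so they do not show how common it is. Of 12 genes for NF-kB subunits and IkB proteins with a window of 300 bases around the start, 3 held a match.
Nfkbia, chr12:55492648-55492897, minus strand: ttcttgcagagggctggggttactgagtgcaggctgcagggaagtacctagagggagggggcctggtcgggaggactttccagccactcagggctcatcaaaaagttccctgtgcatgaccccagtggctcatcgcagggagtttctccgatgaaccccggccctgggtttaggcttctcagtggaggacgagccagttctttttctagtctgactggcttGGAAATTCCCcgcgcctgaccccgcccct
Nfkb2, chr19:46304487-46304736, plus strand: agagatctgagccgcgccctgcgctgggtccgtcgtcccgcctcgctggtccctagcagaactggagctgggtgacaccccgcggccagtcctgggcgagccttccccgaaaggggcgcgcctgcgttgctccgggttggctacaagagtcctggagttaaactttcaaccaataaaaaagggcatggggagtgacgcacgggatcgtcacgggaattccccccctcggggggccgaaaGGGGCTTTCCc
Tnfaip3, chr10:19015411-19015660, minus strand: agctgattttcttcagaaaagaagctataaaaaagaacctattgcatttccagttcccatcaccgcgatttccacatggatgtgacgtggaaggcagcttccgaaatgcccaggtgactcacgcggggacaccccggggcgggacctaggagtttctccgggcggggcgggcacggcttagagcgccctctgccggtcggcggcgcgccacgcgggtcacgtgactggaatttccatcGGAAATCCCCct
Rel, chr11:23770970-23771219, minus strand: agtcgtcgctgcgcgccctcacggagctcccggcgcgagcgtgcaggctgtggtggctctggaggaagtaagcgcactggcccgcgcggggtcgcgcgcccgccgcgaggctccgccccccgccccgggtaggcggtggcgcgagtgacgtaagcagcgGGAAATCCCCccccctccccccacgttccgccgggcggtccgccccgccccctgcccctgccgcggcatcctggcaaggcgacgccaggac
In the printed windows the match began 11 bases before the start in Nfkb2, 12 in Tnfaip3, 29 in Nfkbia and 91 in Rel. At other annotated starts of Nfkb2 a match began 225 bases before or 10 bases after the start. The GENCODE annotation places the printed window of Nfkb2 inside the gene and that of Tnfaip3 almost wholly inside it. Over promoter windows of 300 bases (250 before and 50 after the start), the letters were in 1.81% of 14918 windows of tested genes. They were in 3.08% of the 1301 windows of genes called higher and in 1.37% of the 1464 windows of genes called lower. Among genes whose arms did not overlap in all 4 populations and rose, they were in 12 of 76 windows, from 9 of 57 genes. Windows of 1 gene can share a match. Among those that fell they were in 0 of 31 windows, too few to tell from 1.81%. Rel and Traf3 hold the letters and were not called, Mcl1 holds them and fell, and a match is not evidence of binding.

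Nfkb2 (chromosome 19, 46304320 to 46312385), the gene for p100, rose with its partner. It had 182, 153 and 182 CPM in spleen CD4 with vehicle against 619.6, 307 and 427 CPM with LCL161, and 168, 145 and 172 CPM against 391, 205 and 243 CPM in spleen CD8. In the tumor it had 322, 273 and 234 CPM against 710.0, 542 and 559 CPM in CD4, and 124, 139.6 and 162 CPM against 482, 395 and 328 CPM in CD8. The arms of Nfkb2 did not overlap in any population, and its common log2 fold change was 1.20 ± 0.13 (adjusted p = 5.21e-06). Relb, the partner of p52, had a lowest, median and highest level of 75.3, 111 and 123 CPM over the 12 vehicle libraries and 149.9, 209 and 293 CPM over the 12 LCL161 libraries, a change of 1.03 ± 0.10 with no overlap between the arms. Bcl3, an atypical IkB protein that binds p50 and p52 in the nucleus, moved from 57.8, 83.4 and 107 CPM to 129, 187 and 268 CPM, a change of 1.19 ± 0.08 without overlap. An antisense gene, Gm16175, overlaps Bcl3 and rose by about as much, and strand is not stated for the counting, so the 2 cannot be told apart.

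Other nuclear and cytoplasmic IkB genes rose as well. Nfkbiz, which encodes the inducible coactivator IkBζ, went from a median of 22.7 CPM to 114 CPM, with a log2 fold change of 2.13 ± 0.22, from 1.67 in tumor CD4 to 3.03 in spleen CD8. Nfkbie, for IkBε, changed by 0.68 ± 0.10. The subunit genes of the classical pathway had small changes in the common term. Rela rose by 0.22 ± 0.06 (adjusted p = 0.0112), Rel had 0.34 ± 0.20 (adjusted p = 0.249) and Nfkb1 -0.04 ± 0.10 (adjusted p = 0.813). The value of Nfkb1 joins opposite signs, from -0.65 ± 0.13 in spleen CD8 to 0.35 ± 0.13 in tumor CD8 (interaction test, adjusted p = 0.0906). Rel went from -0.21 ± 0.38 in spleen CD8 to 0.74 ± 0.38 in tumor CD4 (interaction test, adjusted p = 0.680). Rel had 47.3 CPM at the median under vehicle against 53.7 CPM under LCL161. Its LCL161 libraries all lay above its vehicle libraries in 1 population, and its arms overlapped in the others. Of the genes in this paragraph, Nfkbiz and Nfkbie held their call with the 4 marker scores, and Rela lost it with them and without spleen CD8 or tumor CD8.

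**Figure D1:**
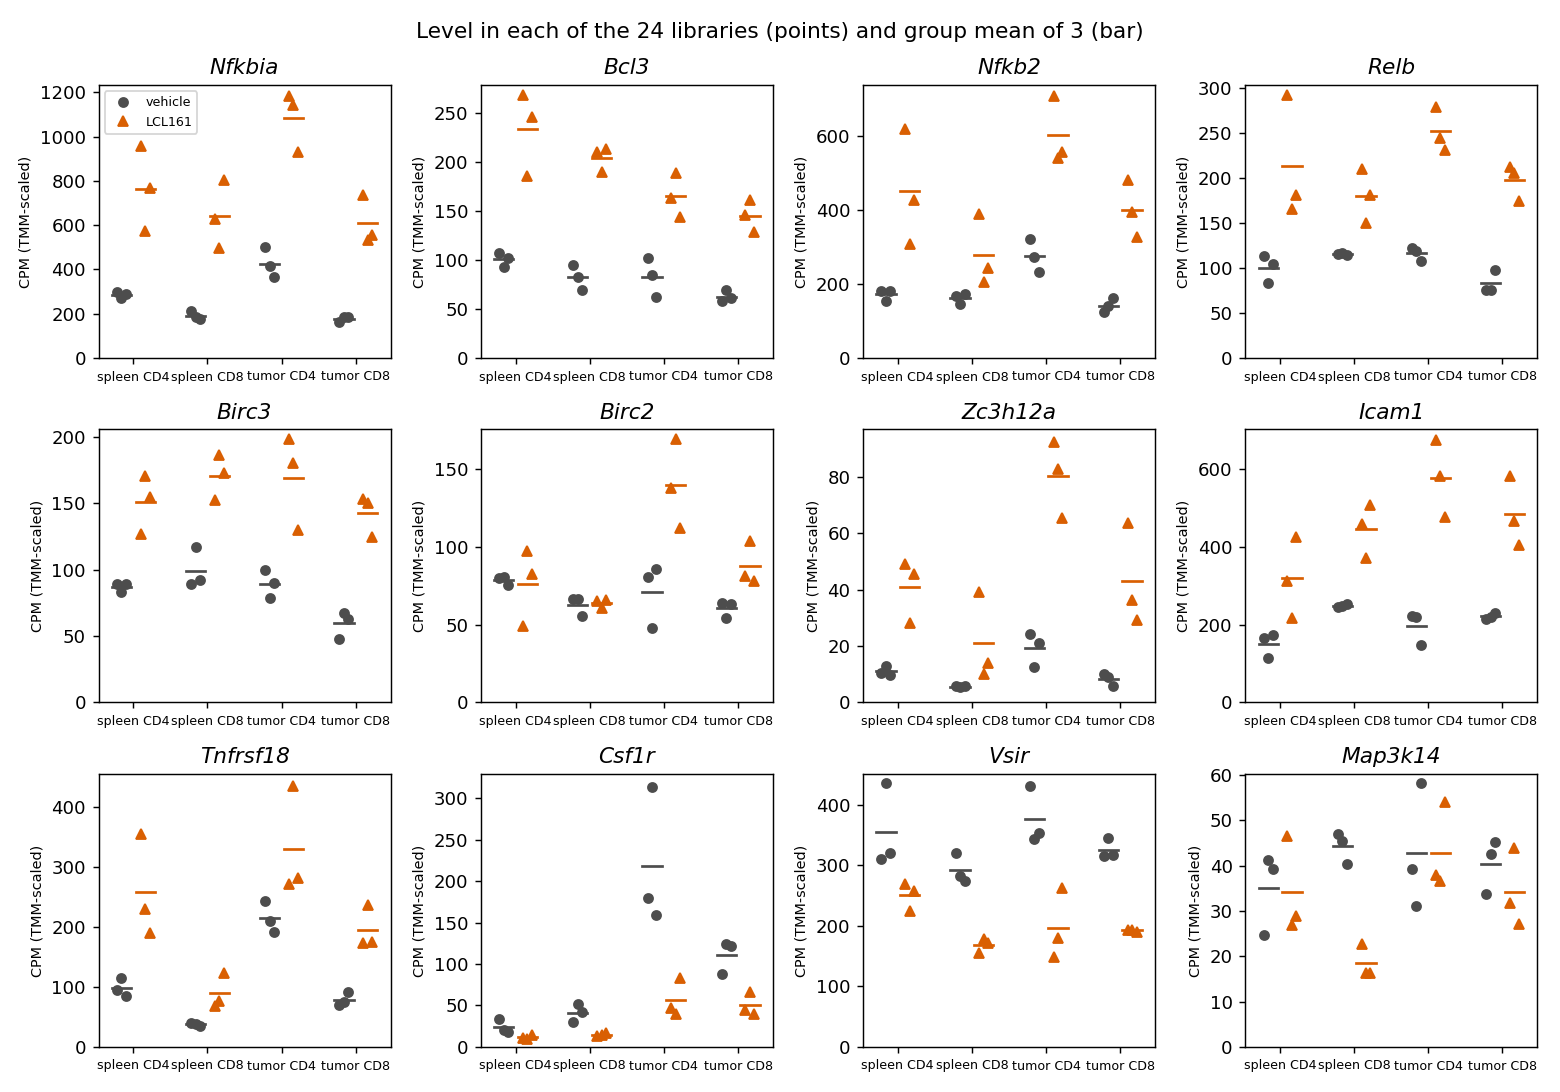
CPM of 12 genes (y axis, linear from 0) in the 4 populations (x axis). Each point is 1 library, circles for vehicle and triangles for LCL161, and each bar is the mean of 3. The arms separate in every population for Nfkbia, Bcl3, Nfkb2, Relb, Birc3, Zc3h12a, Icam1, Tnfrsf18, Csf1r and Vsir, and they overlap for Birc2 in both spleen populations and for Map3k14 in 3 of 4 populations.

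Among the genes for the drug's own targets, Birc3 rose and Birc2 was not called. Birc3 (chromosome 9, 7848699 to 7873186) encodes cIAP2. In spleen CD4 it had 89.2, 82.9 and 89.2 CPM under vehicle against 127, 170.4 and 155 CPM under LCL161, and 89.3, 117 and 91.9 CPM against 153, 186 and 173 CPM in spleen CD8. In the tumor it had 99.6, 78.9 and 89.7 CPM against 198, 180.4 and 129.7 CPM in CD4, and 47.8, 67.7 and 63 CPM against 153, 150.0 and 125 CPM in CD8. Every LCL161 library was above every vehicle library of its population, and the common change of Birc3 was 0.94 ± 0.09 (adjusted p = 1.51e-06). Birc2 (chromosome 9, 7818227 to 7837064), the neighboring gene for cIAP1, had 80.1, 80.7 and 75.5 CPM against 48.9, 97.4 and 82.4 CPM in spleen CD4, and 66.3, 66.3 and 55.8 CPM against 65.4, 61 and 65.9 CPM in spleen CD8. Its values were 80.5, 47.7 and 85.6 CPM against 138, 169.5 and 112 CPM in tumor CD4, and 63.9, 54.3 and 63.3 CPM against 81.2, 104 and 78.4 CPM in tumor CD8. The arms of Birc2 therefore overlapped in the spleen and not in the tumor, its common change was 0.37 ± 0.14 (adjusted p = 0.0658; called in 8 of 42 alternative fits, with changes of 0.06 to 0.51 and adjusted p of 0.00803 to 0.870 over all 42), and the test of whether its effect differed between populations gave an adjusted p of 0.327.

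Over the list of IAP and SMAC genes, 3 of 13 (23.1%) rose and 0 fell, against 9.09% and 7.62% of all genes tested. The list as a whole did not rise: its median log2 fold change was -0.06, and 5 genes had a positive common term. The 3 that rose were Birc3, Birc5 (survivin, a mitotic protein, 0.78 ± 0.18) and Htra2, a mitochondrial protease that binds IAPs (0.22 ± 0.07). The call of Htra2 ended when any 1 of 15 libraries was left out. Xiap, the caspase-binding member, had -0.10 ± 0.11 (adjusted p = 0.573) and Diablo, the gene for SMAC itself, 0.02 ± 0.06 (adjusted p = 0.807).

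The adaptor genes of the cIAP complex split. Traf1, an inducible TRAF protein, rose from a median of 190.4 CPM to 336 CPM (0.86 ± 0.08, no overlap in any population), and Traf2 rose by 0.44 ± 0.08, also without overlap. Traf3 had 0.21 ± 0.12 (adjusted p = 0.259). Map3k14, the gene for NIK, was not called at -0.38 ± 0.17 (adjusted p = 0.126), and in spleen CD8 all of its LCL161 libraries were below all of its vehicle libraries. Tnfrsf11a, which encodes the receptor RANK, fell by 1.75 on the log2 scale (SE 0.22, adjusted p = 4.78e-05), from a median of 14.5 CPM to 3.47 CPM. Over the 14 genes of the alternative pathway 4 (28.6%) rose and 3 (21.4%) fell, against 9.09% and 7.62% of all genes tested. Nfkb2, Relb, Traf2 and Birc3 rose. Tnfrsf11a, Ltbr for the lymphotoxin beta receptor and Tnfrsf13c for the BAFF receptor of B cells fell. Traf1 and Traf2 held their calls with the 4 scores, and Tnfrsf11a did not (adjusted p = 0.157).

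Among genes that restrain NF-kB or destroy its transcripts, 7 of 18 rose and 1, Zfp36, fell, against 9.09% and 7.62% of all genes tested. Zc3h12a, which encodes regnase-1, an RNase that cuts inflammatory transcripts, was low with vehicle and several-fold higher with LCL161. It had 10.3, 12.8 and 9.82 CPM against 48.9, 28 and 45.4 CPM in spleen CD4, and 5.72, 5.33 and 5.72 CPM against 39.3, 10 and 13.8 CPM in spleen CD8. It had 24.4, 12.5 and 21.2 CPM against 92.4, 82.9 and 65.4 CPM in tumor CD4, and 10, 8.95 and 5.89 CPM against 63.7, 36.2 and 29.3 CPM in tumor CD8. The arms of Zc3h12a were separate in each population, with 1 spleen CD8 library well above the other two, and its common change was 2.06 ± 0.20 (adjusted p = 1.51e-06). Tnfaip3, for the ubiquitin-editing enzyme A20, rose by 1.12 ± 0.17, from a median of 158 CPM to 404 CPM, again without overlap. Zfp36l2, a protein that binds AU-rich transcripts, rose by 0.86 ± 0.14. With the 4 scores Zc3h12a was still called and Tnfaip3 was not (0.96, adjusted p = 0.217).

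Of 27 genes listed as classical NF-kB targets, 12 rose and 1, Vcam1, fell (median 0.44). Icam1, the adhesion molecule that binds LFA-1, went from a lowest, median and highest level of 114, 221 and 252 CPM to 218, 463 and 674 CPM, a change of 1.15 ± 0.12 with no overlap within any population. The antisense gene Gm47079 overlaps Icam1 and changed by 1.14. Ier5 rose by 0.52 ± 0.07 and Gadd45b, a stress-inducible regulator of MAP kinase signaling, by 0.90 ± 0.16. Among 7 BCL2 family survival genes 4 rose and 1 fell: Bcl2l1, which encodes BCL-XL, rose by 0.51 ± 0.10, Bcl2 by 0.44 ± 0.12 and Bcl2a1b, 1 of several near-identical A1 genes whose reads may be shared, by 0.61 ± 0.13. Mcl1 fell by 0.20 (SE 0.06). Of 18 cell death genes 1 rose and 1 fell (5.56% each, not above the 9.09% and 7.62% of all genes tested): Bbc3, for the pro-apoptotic protein PUMA, rose by 0.72 ± 0.16, and Casp9, the initiator caspase that XIAP binds, fell by 0.59 (SE 0.11). Of the genes in this paragraph Icam1 held its call with the 4 scores.

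TNF family receptors and ligands changed in both directions. Of 15 costimulatory receptors 6 rose and 3 fell. Tnfrsf18, which encodes GITR, had lowest, median and highest levels of 35.3, 88.1 and 243 CPM under vehicle against 68.8, 210.3 and 436 CPM under LCL161. Within each population its arms did not overlap, and its change was 1.15 ± 0.13 (adjusted p = 1.6e-05), though an antisense gene, Gm16008, overlaps it and rose too. Fas, the death receptor, rose by 0.78 ± 0.17, and Tnfrsf1a, the main TNF receptor, fell by 0.49 (SE 0.07). Of 16 ligands 6 rose and 1 fell. Lta, for lymphotoxin alpha, rose by 0.92 ± 0.18, Ltb, its membrane partner, by 0.57 ± 0.10, and Tnf by 0.68 ± 0.21, a call that ended when any 1 of 8 libraries was left out. Tnfsf13b, for the B cell factor BAFF, rose by 1.24 ± 0.28 from a median of 2.37 CPM, and Tnfsf12, for TWEAK, fell by 1.44 (SE 0.31) from a median of 1.41 CPM, so both rest on few counts. Tnfrsf18 and Lta held their calls with the 4 scores. Lta had an adjusted p of 0.0589 without spleen CD8.

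**Figure D2:**
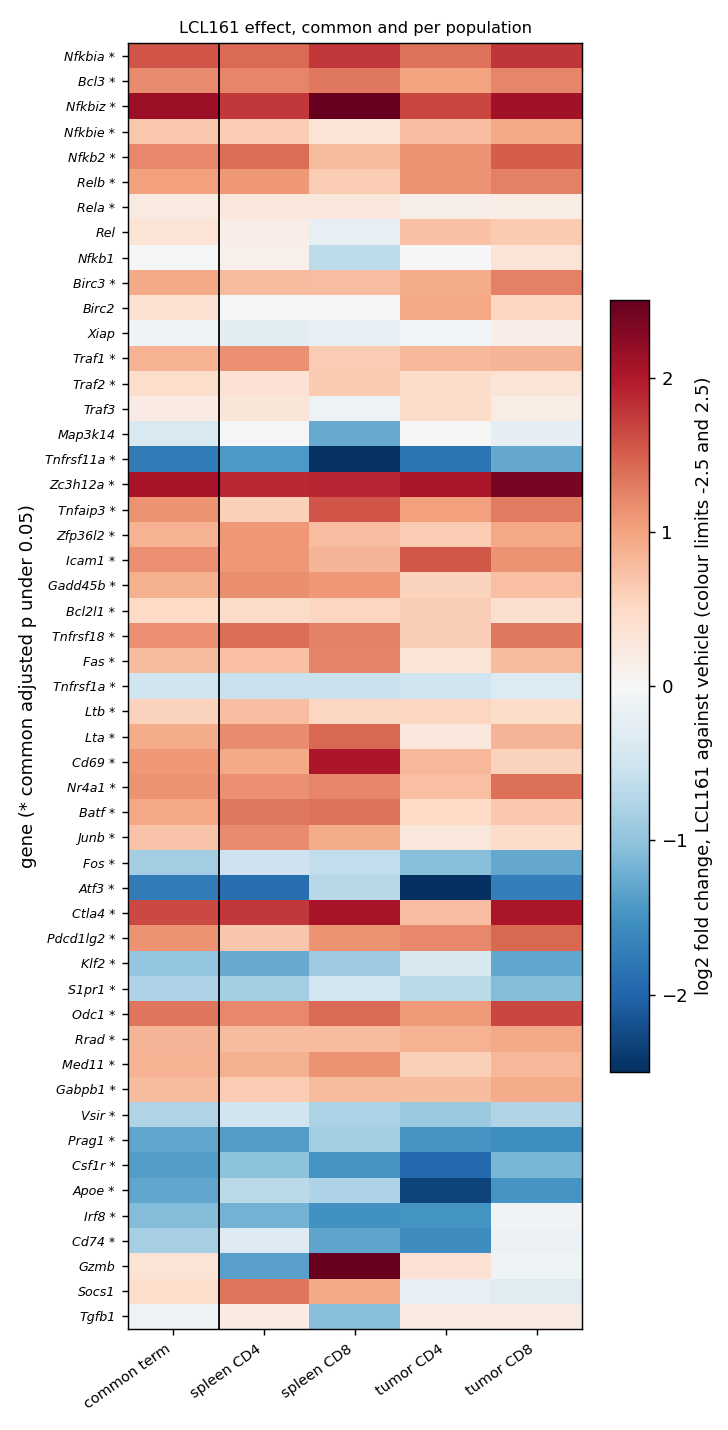
Log2 fold change of LCL161 against vehicle for 51 genes (rows), as the common term (first column) and in each population (other columns), red for higher and blue for lower, with colors limited at -2.5 and 2.5. Nfkbia, Bcl3, Nfkb2, Relb, Birc3 and Zc3h12a are red in every column, whereas Gzmb, Socs1 and Tgfb1 differ in color between populations.

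Of 17 genes switched on early after receptor engagement 9 rose and 1 fell, which was Irf8, also a dendritic cell factor; 7 were not called. Cd69, an early activation marker that retains cells in tissue, rose by 1.08 ± 0.16 from a median of 194 CPM to 454 CPM, from 0.57 in tumor CD8 to 2.02 in spleen CD8. Nr4a1, an orphan receptor that follows T cell receptor signals, rose by 1.12 ± 0.19, and Dusp2, a nuclear MAP kinase phosphatase, by 0.84 ± 0.13. Within the AP-1 family 3 of 14 rose and 3 fell (21.4% each, against 9.09% and 7.62% of all genes tested). Batf, which pairs with JUN proteins in effector T cells, rose by 0.96 ± 0.15 and Junb by 0.71 ± 0.13, while Fos fell by 0.87 (SE 0.23) and Atf3 by 1.74 (SE 0.40). None of Cd69, Nr4a1, Dusp2, Batf, Junb, Fos and Atf3 held its call with the 4 scores.

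Inhibitory receptors and cytokines rose in part. Of 13 genes listed as inhibitory receptors 4 (30.8%) rose and 0 fell, against 9.09% and 7.62% of all genes tested. Ctla4 rose by 1.65 ± 0.34, Pdcd1 (PD-1) by 1.47 ± 0.39, Tigit by 1.26 ± 0.27 and Pdcd1lg2 by 1.12 ± 0.15. Vsir, described below, is outside that list and fell. Pdcd1lg2 encodes PD-L2, a ligand rather than a receptor; its arms did not overlap in any population and it held its call with the 4 scores. Pdcd1 had an adjusted p of 0.0507 without the second LCL161 library of tumor CD4. Vsir, which encodes the inhibitory protein VISTA of T cells and myeloid cells, fell by 0.75 (SE 0.08), from lowest, median and highest levels of 274, 321 and 437 CPM to 149, 192 and 269.7 CPM, with no overlap in any population; with the 4 scores together it stood at -0.64 (adjusted p = 0.164), and it held its call with each score alone (adjusted p of 0.0048 or less). Of 15 T cell cytokines and chemokines 5 rose and 0 fell, among them Csf2, for GM-CSF, by 1.79 ± 0.40 from a median of 2.88 CPM and Ifng by 1.17 ± 0.37. Ccl1, a chemokine outside that list, rose by 1.78 ± 0.60. The call of Ifng ended when any 1 of 9 libraries was left out, and that of Ccl1 when any 1 of 17 was. Il2ra, for the high-affinity chain of the interleukin-2 receptor, rose by 1.32 ± 0.30. Cxcl10, a chemokine induced by interferon and NF-kB, rose by 1.65 ± 0.33 and held its call with the 4 scores, though not without spleen CD8 (adjusted p = 0.0514). Ctla4, Pdcd1, Tigit, Csf2, Ifng, Ccl1 and Il2ra lost their calls with the 4 scores. Sizes varied by population: Tigit had 2.47 in spleen CD8 and 0.42 in tumor CD4. Ifng had 2.63 in spleen CD8 and 0.13 in tumor CD8. Cxcl10 had 2.64 and 2.61 in spleen CD4 and CD8 against 0.38 and 1.03 in tumor CD4 and CD8. The interaction test gave these 3 genes adjusted p of 0.407, 0.498 and 0.258.

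Of 20 cytotoxic genes 3 (15%) rose and 0 fell, against 9.09% and 7.62% of all genes tested, and none of the 3 is itself a killing protein: Srgn encodes the proteoglycan that packs granules, and Serpinb9 and Serpinb6b encode serpins, of which SERPINB9 blocks granzyme B. Gzmb, for granzyme B, was not called (0.35 ± 0.47, adjusted p = 0.646), with a log2 fold change of 2.73 in spleen CD8, -1.35 in spleen CD4, 0.35 in tumor CD4 and -0.11 in tumor CD8; the test for a difference between populations gave an adjusted p of 0.196. Genes of naive and recirculating T cells were lower where they were called: of 14, 0 rose and 3 (21.4%) fell, beside the shares of all genes just given. Klf2, a factor that maintains quiescence, fell by 0.96 (SE 0.24), S1pr1, the receptor for exit from tissue, by 0.77 (SE 0.17) and Id3 by 0.96 (SE 0.24). In tumor CD4 the arms of Klf2 overlapped, with vehicle libraries at 222, 371 and 684 CPM and LCL161 libraries at 180, 106 and 688 CPM.

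Genes of the T cell receptor complex were called in part. Of 11 alpha beta T cell genes 4 (36.4%) rose and 1 (9.09%) fell, against 9.09% and 7.62% of all genes tested. Cd3e had 0.18 ± 0.09 (adjusted p = 0.164), Cd3g rose by 0.38 ± 0.10, Lck, the kinase of the receptor, by 0.27 ± 0.08, and Cd28 fell by 0.60 (SE 0.12). Trac, the constant gene of the alpha chain locus that the genotype names, had RNA in every library: 63.2 to 1082 CPM in the CD4 sorts and 9.30 to 35.5 CPM in the CD8 sorts. The labels do not say which part of the locus is disrupted, so these counts do not check the genotype. The common change of Trac was 0.76 ± 0.29 (adjusted p = 0.0698).

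Gamma delta T cell genes had no call in the common term (0 of 16), but their values went in different directions by population. The list median was -3.30 and 0.46 in the CD4 and CD8 sorts of the spleen and -1.27 and 0.23 in those of the tumor. Their summed level was 527 to 2075 CPM under vehicle against 251 to 391 CPM under LCL161 in spleen CD4, and 1555 to 1695 CPM against 2286 to 3187 CPM in spleen CD8, both without overlap. In tumor CD4 the sums were 343 to 3503 CPM against 224 to 951.7 CPM, and in tumor CD8 3424 to 3825 CPM against 3553 to 4114 CPM, both with overlap. Trdc, the delta chain's constant gene, had -0.95 ± 0.65 in the common term (adjusted p = 0.329), from -3.87 ± 1.07 in spleen CD4 to 0.73 ± 0.95 in spleen CD8, and the test of a difference between populations gave an adjusted p of 0.378.

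Several of the genes with the smallest p-values belong to none of the lists, and they were chosen here after their values had been seen. Odc1, the rate-limiting enzyme of polyamine synthesis, went from lowest, median and highest levels of 70.7, 152 and 839 CPM to 178, 422 and 1373 CPM, a change of 1.34 ± 0.14; several Odc1-like pseudogenes share its values, and the reads of such copies may be split. Rrad, a small GTPase of the RGK family, rose by 0.85 ± 0.08, with an overlapping antisense gene that rose too. Med11, a Mediator subunit, rose by 0.86 ± 0.08, Gabpb1, a subunit of the factor GABP, by 0.79 ± 0.07 and Limd2 by 0.58 ± 0.06. The opposite-strand gene Gm10840 overlaps Limd2 and rose by 0.94. Called genes on the opposite strand, changed the same way, also overlap Htra2, Bcl2, Csf2, Cxcl10, Tk1, Mcm7, Uqcrc2, Hif1a, Aldoa, Fkbp5, Rap2b, Vipr2, Mpo, Abca3 and Lipe, with the same limit as for Bcl3. The arms of Rrad, Med11, Gabpb1 and Limd2 were separate in all 4 populations, and those of Odc1 in 3. Tgif1, a repressor of TGF-beta signaling, rose by 0.95 ± 0.11, Map3k8, a kinase that p105 holds inactive, by 1.26 ± 0.16, Casp4, the caspase of the non-canonical inflammasome, by 0.96 ± 0.13 and Cxcr4 by 0.91 ± 0.12.

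The falls that separated in every population were fewer. Prag1, a pseudokinase, fell by 1.31 (SE 0.16), Lfng, the glycosyltransferase that modifies Notch receptors, by 0.82 (SE 0.11) and Rap2b, a small GTPase, by 0.57 (SE 0.07). Prag1 had 9.41 to 16 CPM in the tumor CD4 vehicle libraries and 3.17 to 5.73 CPM in the matching LCL161 libraries. With the 4 scores Odc1, Rrad, Med11, Limd2, Tgif1, Casp4, Prag1 and Lfng held their calls, and Gabpb1, Map3k8, Cxcr4 and Rap2b did not.

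**Figure D3:**
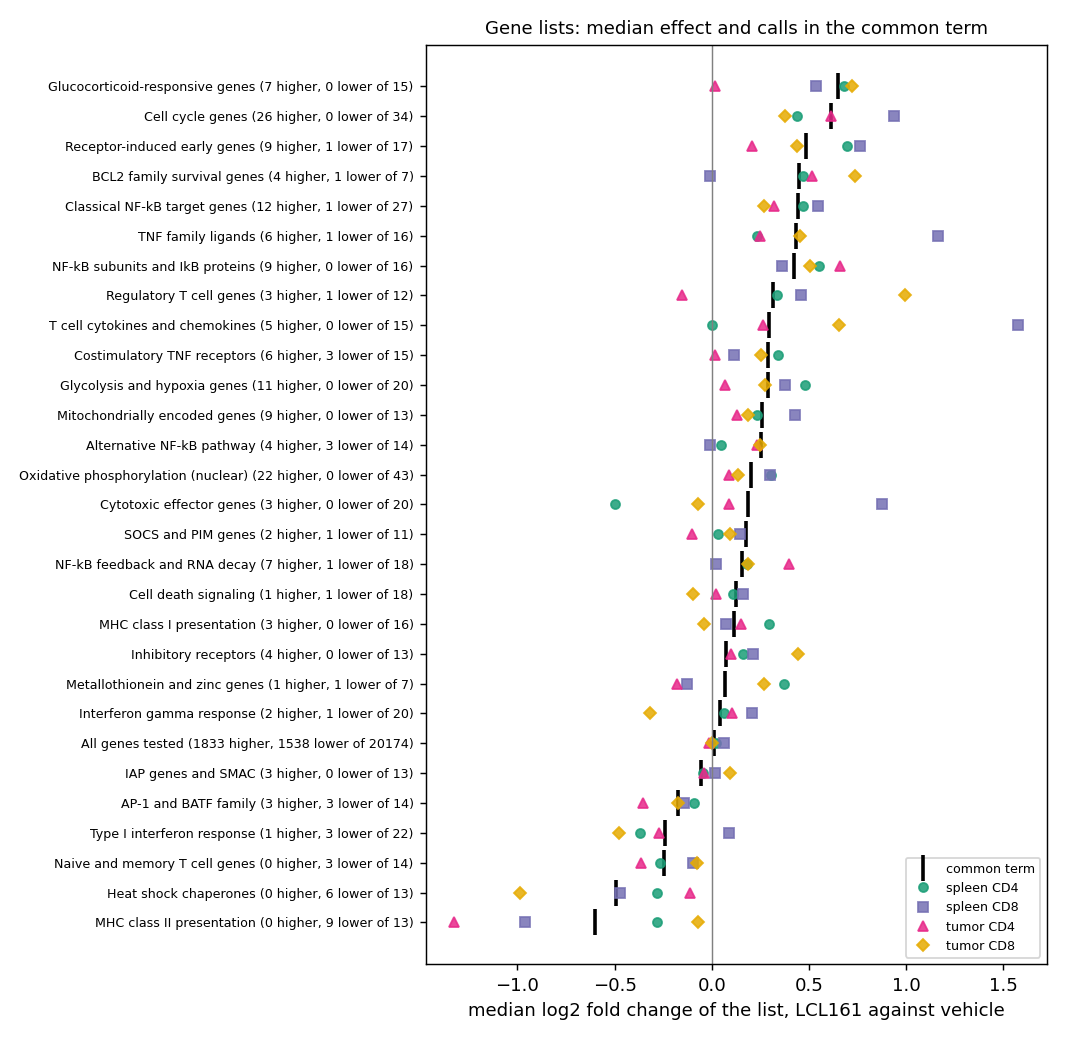
Median log2 fold change (x axis) of the 28 pathway lists and of all genes tested (rows, with the number called higher and lower in the common term and the number tested). The black bar is the common term and the symbols are the 4 populations. All genes lie near 0, cell cycle genes lie to the right and MHC class II genes to the left in every population.

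Proliferation and energy genes rose in small steps. Of 34 cell cycle genes 26 rose and 0 fell (median 0.62), and all 34 had a positive common term. Tk1, the thymidine kinase of S phase, rose by 0.86 ± 0.15, from a median of 23.5 CPM to 42.2 CPM, Tyms by 0.80 ± 0.15, Stmn1 by 0.78 ± 0.14 and Mcm7, a subunit of the replicative helicase, by 0.54 ± 0.10. The median of the list was 0.44 and 0.94 in the CD4 and CD8 sorts of the spleen and 0.61 and 0.37 in those of the tumor. Of 43 nuclear genes of oxidative phosphorylation 22 rose and 0 fell, with a median of only 0.20: Uqcrc2 rose by 0.24 ± 0.04, Sdhb by 0.35 ± 0.06 and Atp5b by 0.23 ± 0.05. Of 13 mitochondrially encoded genes 9 rose and 0 fell, mt-Nd1 by 0.37 ± 0.06 and mt-Cytb by 0.28 ± 0.06. Of 20 genes of glycolysis and the hypoxia response 11 rose and 0 fell, among them Hif1a by 0.82 ± 0.17, Aldoa by 0.46 ± 0.09 and Ldha by 0.34 ± 0.08. None of the genes named in this paragraph held its call with the 4 scores.

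Glucocorticoid-responsive genes rose in part and heat shock genes fell in part. Of 15 glucocorticoid-responsive genes 7 rose and 0 fell (median 0.65). The list median was 0.68 and 0.54 in the CD4 and CD8 sorts of the spleen and 0.02 and 0.72 in those of the tumor. Tsc22d3, which encodes GILZ, rose by 1.16 ± 0.16 from a median of 249.8 CPM to 592 CPM with no overlap in any population, Dusp1 by 1.00 ± 0.17, Ddit4 by 0.68 ± 0.14 and Fkbp5 by 0.64 ± 0.14. Of 13 heat shock chaperones 0 rose and 6 fell (median -0.49). Their median was -0.28 and -0.47 in the CD4 and CD8 sorts of the spleen and -0.11 and -0.99 in those of the tumor. Hsph1 fell by 0.92 (SE 0.22), Hsp90ab1 by 0.49 (SE 0.13) and Dnaja1 by 0.55 (SE 0.15), all with their largest change in tumor CD8. Hspb1 fell by 1.97 (SE 0.45) from a median of only 1.21 CPM. The arms of each named chaperone were separate in 1 population. Of 22 type I interferon genes 1 rose, Ifi27 by 0.64 ± 0.10, and 3 fell, among them Stat2 by 0.50 (SE 0.12), which is 4.55% and 13.6% of the list against 9.09% and 7.62% of all genes tested.

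Macrophage and dendritic cell genes were lower where they were called. Of 18 monocyte and macrophage markers 0 rose and 13 fell (median -1.14), and of 15 conventional dendritic cell markers 0 rose and 7 fell (median -0.93). Csf1r, the receptor for the macrophage growth factor CSF1, went from lowest, median and highest levels of 18.3, 69.6 and 314 CPM to 9.82, 28.4 and 83 CPM, a change of -1.40 ± 0.17 with no overlap within any population. Mrc1, the mannose receptor, fell by 1.48 (SE 0.30), Apoe by 1.31 (SE 0.27) and Cd163, a scavenger receptor, by 1.48 (SE 0.30). Among dendritic cell genes Irf8, the factor that type 1 dendritic cells need, fell by 1.08 (SE 0.28), Sirpa by 1.12 (SE 0.22) and Cd209a by 1.60 (SE 0.37). Klk1, listed as a plasmacytoid marker, fell by 1.80 (SE 0.33).

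Summed over the list, monocyte and macrophage markers fell most plainly in the tumor. They summed to 4143 to 9049 CPM in tumor CD4 under vehicle against 1345 to 2555 CPM under LCL161, and to 4165 to 4707 CPM and 1960.0 to 2556 CPM in tumor CD8. In spleen CD4 the sums overlapped at 671 to 1178 CPM and 403 to 989 CPM, and in spleen CD8 at 1170.3 to 1616 CPM and 1176 to 1597 CPM. Conventional dendritic cell markers summed to 5131 to 5678 CPM in spleen CD8 under vehicle against 1141 to 2748 CPM under LCL161, and to 959 to 1405 CPM and 1006 to 1379 CPM in tumor CD8. At most 1 of the macrophage markers and none of the dendritic cell markers was at 0 throughout a group. Dendritic cell sums thus separated in spleen CD8, where macrophage sums overlapped, and macrophage sums separated in tumor CD8, where dendritic cell sums overlapped.

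MHC class II genes were also lower where called. Of 13 none rose and 9 fell (median -0.60), with list medians of -0.28 and -0.96 in the CD4 and CD8 sorts of the spleen and -1.32 and -0.07 in those of the tumor. Cd74, the invariant chain, fell by 0.83 (SE 0.24), Ciita, the master regulator of the class, by 0.94 (SE 0.22) and Ctss, the protease that trims the invariant chain, by 0.60 (SE 0.16). None of the falls named in these 3 paragraphs held its call with the 4 scores together, and some of the scores contain the genes. With 1 score at a time, all of them held with the B cell or the neutrophil score, Csf1r, Mrc1, Apoe and Cd163 held with the dendritic cell score, and of these falls Csf1r alone held with the macrophage score. Csf1r stood at -0.82 (adjusted p = 0.0148) with the macrophage score and at -1.12 (adjusted p = 0.00166) with the dendritic cell score.

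B cell and plasma cell markers had 0 of 15 called, and their sums moved differently by population. They summed to 5807 to 9096 CPM under vehicle against 5415 to 10088 CPM under LCL161 in spleen CD4, and to 6663 to 11286 CPM against 3365 to 7761 CPM in spleen CD8, with overlap in both. In tumor CD4 the sums separated, at 476 to 1474 CPM against 326 to 460.3 CPM, and in tumor CD8 they overlapped, at 395 to 570.1 CPM against 475 to 630.1 CPM.

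**Figure D4:**
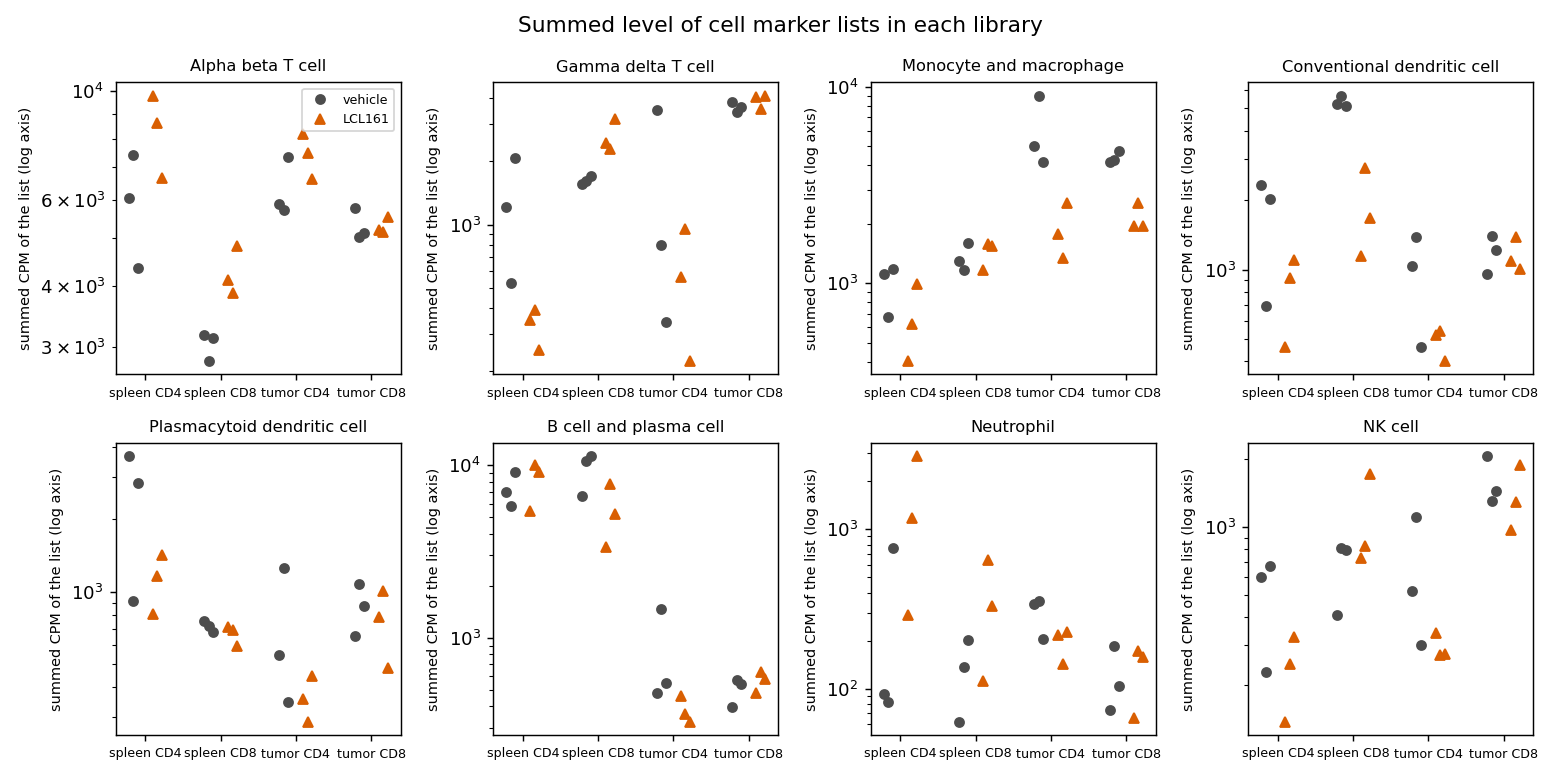
Summed CPM of 8 cell marker lists (y axis, log scale) in each library, by population (x axis), circles for vehicle and triangles for LCL161. Macrophage sums separate in both tumor populations and dendritic cell sums separate in spleen CD8, while neutrophil sums vary widely between the libraries of a group.

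Large changes were also ranked among called genes of 1 sign in all populations with at least 5 CPM in the higher arm, leaving out predicted genes and receptor segments. The largest rises by this rule were the neutrophil granule genes Mpo (2.37 ± 0.70), Camp (2.33 ± 0.72), Ngp (2.25 ± 0.72) and Elane (2.21 ± 0.75). In spleen CD4 Mpo had 1.16, 27.3 and 79.1 CPM under vehicle against 29.2, 93.5 and 294 CPM under LCL161, and in tumor CD8 it had 0, 0.0814 and 0.0437 CPM and 0, 0.196 and 3.7 CPM. Its groups overlapped in every population. Neutrophil markers summed to 82.4 to 759 CPM in spleen CD4 with vehicle and to 287 to 2861 CPM with LCL161. The sums were 62.1 to 201 CPM against 112 to 636 CPM in spleen CD8. In tumor CD4 they were 206 to 356 CPM against 142 to 227 CPM, and in tumor CD8 73.5 to 186 CPM against 65.6 to 171 CPM. The list median was 2.08 and 1.35 in the CD4 and CD8 sorts of the spleen and -0.52 and 0.15 in those of the tumor. The calls of Mpo, Camp, Ngp and Elane each ended when single libraries were left out (2 libraries for Mpo, 4 for Camp, 12 for Ngp and 19 for Elane).

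The largest falls by the same rule were Alox15, a lipoxygenase of resident macrophages (-3.81 ± 0.84), and Serpinb2 (-3.14 ± 0.70). In tumor CD4 Alox15 had 14.3, 65.3 and 67.6 CPM under vehicle against 5.49, 0 and 0.745 CPM under LCL161, and no spleen library was above 3.06 CPM. Among the next falls, Lrrc25 fell by 2.10 (SE 0.33), Cd5l, a macrophage protein, by 2.09 (SE 0.45), Clec4a1 by 2.05 (SE 0.35), Gapt by 1.97 (SE 0.36) and P2ry6 by 1.89 (SE 0.33). Beside Nfkbiz, Zc3h12a, Csf2, Ccl1 and Cxcl10, described above, the other rises of that ranking were Vipr2, a receptor for the neuropeptide VIP (2.15 ± 0.45), Mid2 (1.91 ± 0.41), Dyrk3 (1.84 ± 0.35), Areg, for amphiregulin (1.78 ± 0.44), Serpina3f (1.72 ± 0.27) and Serpina12 (1.71 ± 0.40). Serpina3f belongs to a cluster of similar genes and its reads may be shared; it went from a median of 69.2 CPM to 207 CPM, while the other 5 had a median of at most 12.5 CPM in either arm.

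**Figure D5:**
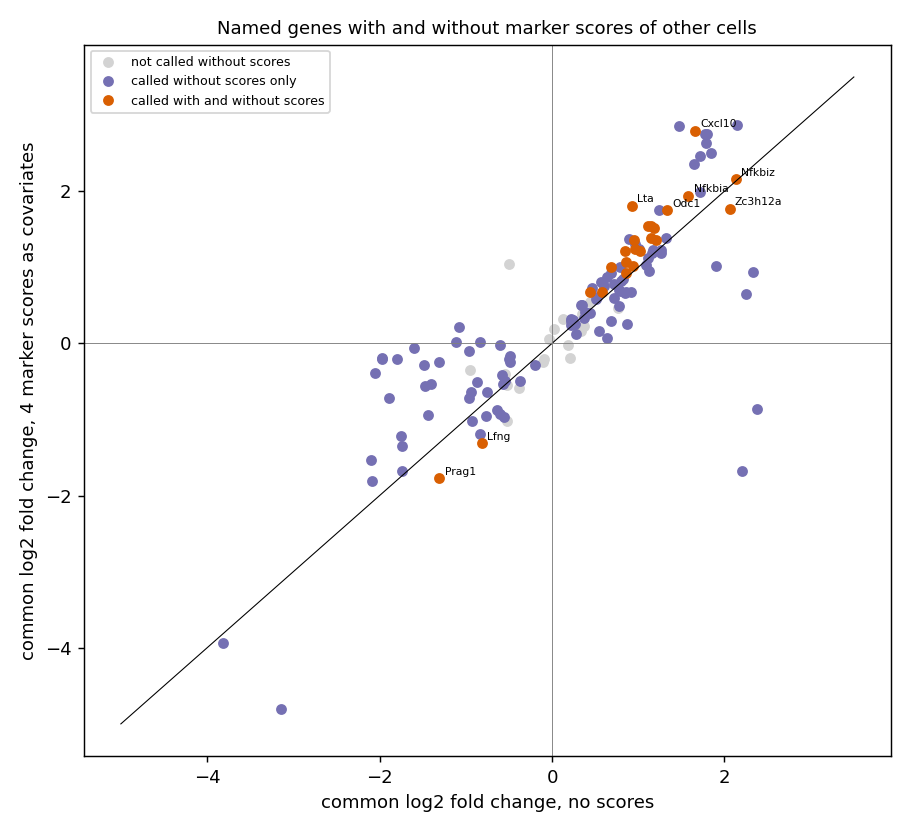
Common log2 fold change of the named genes without marker scores (x axis) and with 4 marker scores as covariates (y axis); each point is 1 gene, orange where it was called both ways, and the line marks equal values. Nfkbia, Nfkbiz, Zc3h12a, Lta and Cxcl10 are called both ways, and many of the falls lie closer to 0 on the y axis than on the x axis.

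The test of whether the effect differed between populations called 20 genes (0.0991% of those tested), 7 of which were also called in the common term, while 2221 genes had an unadjusted p under 0.05. That number rested on single libraries: it was 0 without the third LCL161 library of spleen CD8, 160 without the first, and 1 without any 1 of the 3 vehicle libraries of that population. None of the NF-kB or IAP genes named above was among the 20. Mtmr4, a lipid phosphatase of endosomes, had 238, 214 and 223 CPM in spleen CD8 under vehicle against 70.9, 66.6 and 41 CPM under LCL161, a change of -1.92, against -0.09 to -0.37 in the other populations (adjusted p = 0.0189). Itpripl2 (-2.20), Abca3 (-1.76), Rab43 (-1.72), Extl3 (-1.63), Lipe, for hormone-sensitive lipase (-1.59), Arf3 (-1.08) and Tgfb1, for the cytokine TGF-beta 1 (-1.06), also had their largest fall in spleen CD8. Apol7c had -3.33 in spleen CD8 and -2.71 in spleen CD4, against 0.05 and -0.55 in the tumor. These 9 changes moved with the lower level of dendritic cell markers in spleen CD8, and its part in them was not tested.

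Socs1, which encodes an inhibitor of cytokine receptor signaling, had opposite signs in the tissues. In spleen CD4 it had 78.3, 96.2 and 85 CPM under vehicle against 294, 176 and 190.3 CPM under LCL161, and 76.8, 57.3 and 70.1 CPM against 110.4, 136 and 146 CPM in spleen CD8. In the tumor it had 197, 222 and 149 CPM against 116, 186 and 189 CPM in CD4, and 206, 195 and 201 CPM against 152, 170.1 and 167 CPM in CD8. The log2 fold changes of Socs1 were 1.35, 0.94, -0.21 and -0.30 in that order, and the interaction test gave an adjusted p of 0.0375. As stated above, that test called no gene without the third LCL161 library of spleen CD8.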

How the data were processed

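RNA was measured in cells sorted by flow cytometry; per the labels' protocols a Qiagen kit gave total RNA and standard Illumina methods gave the libraries. Per the submitters' processing notes the tools included cutadapt and STAR 2.7.3a with GRCm38. The counting tool, its annotation and its strand setting were not given in the sources used here. The authors deposited expected counts per gene symbol (55025 symbols; 52.7% of non-zero values not whole), which were rounded here. The library totals are given in the report.

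Genes were kept by filterByExpr (minimum count 10), scaled by TMM (factors 0.94 to 1.05) and fitted in edgeR 4.0.16 (R 4.3.3) with robust quasi-likelihood: population plus 1 treatment term (19 residual degrees of freedom) for the common effect, and a mean per group (16) for effects per population and their difference (interaction). Adjustment was by Benjamini-Hochberg over all 20174 genes. The common coefficient of biological variation was 0.35. The 44 gene lists (28 pathway, 16 cell type) are described by counts and medians. Coordinates and overlaps came from GENCODE M21 (19856 tested symbols matched). Promoter windows were found for 11763 tested genes in RefSeq.

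Named genes were the 15 largest rises and falls among calls of 1 sign in all populations, with no interaction call and at least 5 CPM in the higher arm, without predicted genes and receptor segments; up to 4 per list with the smallest adjusted p; a fixed panel; and the 10 genes with the smallest interaction p. The text gives part of these and adds genes named as chosen after their values were seen. Members and lists were chosen with earlier results of these data known.

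Every pair of replicates differed by more than counting error (chi-square per gene 13.03 to 134.9 over 24 pairs). Alternatives were RLE or no scaling, no or a stricter filter (5 CPM in 3 libraries), DESeq2 1.42.0, limma 3.58.1 voom, blocks for the replicate number, the mean of the 4 effects, marker scores of other cells together or, added after the data were seen, 1 at a time, and leaving out each population or library. On simulated counts for 20174 genes, the common term recovered 47.8% of genes changed 1.5-fold, 86.6% of those changed 2-fold and 90.9% of those changed 4-fold, with 8 calls among unchanged genes. The simulated libraries were independent, each changed gene had 1 effect in all 4 populations, and other cells were not made to differ. These shares therefore do not give the error rate of the calls in the real data. Figures used Python 3.11.15 and matplotlib 3.10.9.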

Additional observations from a re-analysis of the deposited data

Results flagged for a closer look

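The LCL161 effect differed between the 4 populations in 20 genes by edgeR's quasi-likelihood test of the interaction terms, adjusted over all genes. The adjusted p was 0.0145 for Gm8221. The adjusted p was 0.0189 for Mtmr4. The adjusted p was 0.0222 for Gm45140. The adjusted p was 0.0375 for Apol7c, Rab43, Nme4, Socs1, Itpripl2, Cda and Abca3. The adjusted p was 0.0406 for Extl3, Arf3, Lipe, Tgfb1, Adam15, Ctdsp2, Zbtb7b, Gadd45g and Vwf. The adjusted p was 0.0469 for Gm16034. For genes not described in the report, the log2 fold changes follow for the spleen (CD4, CD8) and then the tumor (CD4, CD8). Ctdsp2 had -0.07, -1.62, -0.56 and -0.33. Zbtb7b had 0.13, -1.69, -0.29 and -0.91. Adam15 had 0.52, -0.51, -1.35 and -0.44. Gadd45g had 0.04, 2.36, -0.22 and 0.68. Nme4 had 1.55, -0.89, -1.69 and 0.20. Vwf had 0.33, -1.40, -4.23 and 0.91. Cda had 6.76, 5.43, -1.82 and -0.98, at a mean of 0.67 CPM under vehicle and 0.44 CPM under LCL161. Of the 20 genes, Gm8221, Gm45140 and Gm16034 are predicted genes and were not described further, and the number called ran from 0 to 160 when 1 library was left out.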

How the results depend on the processing

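The number of genes called in the common term, the numbers higher and lower and the number with 1 sign in all populations stayed within 1.5 times of their reported values under RLE scaling, no scaling, both filters, DESeq2, the fixed replicate block, the mean of the 4 effects and the single B cell and neutrophil scores, and without spleen CD4 or tumor CD4. They moved under limma voom (5526 called, 2751 higher, 2775 lower), voom with a random replicate block (5931, 2947, 2984, and 4702 of 1 sign), the 4 marker scores (53, 38, 15 and 53), the macrophage score (1244, 684, 560 and 1190), the dendritic cell score (1150, 616, 534 and 1112), without spleen CD8 (784, 444, 340 and 778) and without tumor CD8 (1712, 885, 827 and 1684); the cause was not tested. Genes called for a difference between populations (20) numbered 7 with no scaling, 33 at 5 CPM, 548 by DESeq2, 53 by voom, 10 with the fixed and 47 with the random replicate block, 3 with the 4 scores, 12, 144 and 49 with the macrophage, dendritic cell and neutrophil scores, 8 and 0 without the CD4 or CD8 sort of the spleen and 68 and 0 without that of the tumor. With each library left out, 2541 to 3767 genes were called, 1361 to 1954 higher, 1168 to 1813 lower, 2356 to 3407 of 1 sign and 0 to 160 for a difference. With the 4 scores 5 named genes changed sign: Sirpa 0.0133, Irf8 0.219, Cd74 0.0185, Mpo -0.859, Elane -1.67 (log2 fold changes, none called with the scores). Of the 123 named calls, 117 to 123 held under each change of scaling, filter, tool or block in which all were tested. Libraries of the same number showed little correlation. Over 36 pairs of the same treatment and number in different populations, deviations from the group mean correlated at -0.168 to 0.166 (4 above 0.1). Over 12 pairs of the same population and number across treatments, they correlated at -0.113 to 0.0818. Different sorted cells of 1 mouse need not deviate together, so these values cannot show whether equal numbers mean 1 mouse. The fixed replicate block called 3178 genes. Genes under about 5 CPM rest on few counts.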
